A study of Mus musculus with 10 samples.

Results

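The 10 genes described here, C1qa, C1qb, C1qc, Fcrls, Fcer1g, Mrc1, Csf1r, Cx3cr1, Aif1 and Tyrobp, are genes of microglia and of macrophages at the borders of the brain. They were chosen by name, not by a threshold on measured values, but with earlier results of these data known, and all 10 were among the 38803 gene symbols measured. Total RNA of the dorsal telencephalon, the embryonic tissue that forms the cerebral cortex, was sequenced in mouse embryos at embryonic day 12. Mutants (5 libraries) were Rnu11 Flx/Flx with Emx1-Cre +/-, and controls (5 libraries) were Rnu11 WT/Flx with Emx1-cre +/-, all of mixed C57/Bl6 and 129 SvJ background. Rnu11 encodes U11, a small nuclear RNA of the minor spliceosome, which removes a rare class of introns. Both groups carried Cre and at least 1 floxed copy, so the controls are not unmodified mice. Nothing in the labels ties a library to 1 embryo, and the p-values therefore measure only the spread between libraries, which may be technical.

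Microglia are the resident macrophages of the brain. They arise in the yolk sac and enter the neural tube early, before most neurons are born, so they do not descend from the Emx1-expressing progenitors in which Emx1-Cre recombines. Border-associated macrophages lie in the meninges, the choroid plexus and around vessels. Both take up dying cells, and both depend on the receptor Csf1r for survival.

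The list spans several roles. C1qa, C1qb and C1qc encode the chains of C1q, which starts the classical complement cascade and binds cells to be engulfed. Csf1r, Cx3cr1, Fcrls and Mrc1 encode surface receptors, and Fcer1g and Tyrobp are membrane adaptors through which Fc receptors and Trem2 signal to the kinase Syk. Aif1 encodes the actin-binding protein IBA1, a standard stain for microglia and macrophages.

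Promoters are shown because macrophage genes are classically bound by PU.1, the product of Spi1, at purine-rich letters around GAGGAA. The promoter table of RefSeq (GRCm38.p6) matched 7 of the 10 members. Not matched were C1qa, Csf1r and Tyrobp. The windows of Aif1 and Fcer1g, with 1 match each to the motifs marked below, and of Cx3cr1, with 0, are not printed. The following 4 windows are those in which both motifs were found. Each holds the 250 bases before the RefSeq start of transcription, 5′ to 3′ on the gene's strand. They lie at chr4:136886201-136886450 (minus strand), chr4:136892915-136893164 (minus strand), chr3:87263525-87263774 (minus strand) and chr2:14229164-14229413 (plus strand). Capitals mark GAGGAA and AGGAAG, which overlap each other as letters, read on either strand (TTCCTC and CTTCCT on the opposite one).
C1qb: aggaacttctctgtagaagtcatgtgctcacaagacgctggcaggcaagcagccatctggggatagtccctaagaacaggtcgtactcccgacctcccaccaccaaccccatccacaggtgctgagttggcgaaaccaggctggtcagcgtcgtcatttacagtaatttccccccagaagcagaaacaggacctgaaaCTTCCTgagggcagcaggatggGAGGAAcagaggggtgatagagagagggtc
C1qc: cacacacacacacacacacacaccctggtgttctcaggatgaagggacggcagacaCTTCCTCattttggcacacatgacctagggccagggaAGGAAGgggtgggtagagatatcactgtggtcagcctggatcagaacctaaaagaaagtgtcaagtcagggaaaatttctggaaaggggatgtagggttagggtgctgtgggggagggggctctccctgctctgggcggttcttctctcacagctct
Fcrls: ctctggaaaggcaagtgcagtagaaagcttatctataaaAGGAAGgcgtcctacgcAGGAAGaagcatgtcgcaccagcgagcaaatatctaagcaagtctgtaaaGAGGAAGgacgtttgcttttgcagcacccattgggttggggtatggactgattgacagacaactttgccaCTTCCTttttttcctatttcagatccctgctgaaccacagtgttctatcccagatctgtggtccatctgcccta
Mrc1: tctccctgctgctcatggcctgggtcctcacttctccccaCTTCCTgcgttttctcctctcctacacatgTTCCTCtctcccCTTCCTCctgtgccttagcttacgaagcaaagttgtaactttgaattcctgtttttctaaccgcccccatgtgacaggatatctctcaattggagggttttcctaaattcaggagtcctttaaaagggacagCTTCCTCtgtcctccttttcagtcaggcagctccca
The letters GAGGAA occurred in 5 of the 7 member windows and in 23.3% of all 32851 promoter windows of that length, and AGGAAG in 5 of the 7 and in 29.5%. Either motif was found in 6 of the 7, all but Cx3cr1, against 39.2% of all windows. The marked runs of Fcrls begin 211, 194, 144 and 74 bases before the start, those of Mrc1 at 210, 180, 168 and 36, those of C1qc at 194 and 157 and those of C1qb at 52 and 30. These are matches of letters, and binding was not measured.

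The C1q genes form a cluster on mouse chromosome 4, all on the minus strand within 18675 bases of GRCm38: C1qb at 136880129 to 136886187, C1qc at 136889804 to 136893065 and C1qa at 136895917 to 136898803 (GENCODE M21). Fcer1g lies on chromosome 1 (171229572 to 171234365), Mrc1 on chromosome 2 (14229392 to 14332057), Fcrls on chromosome 3 (87250758 to 87263738), Tyrobp on chromosome 7 (30413760 to 30417585), Cx3cr1 on chromosome 9 (119901616 to 120069879), Aif1 on chromosome 17 (35170991 to 35176068) and Csf1r on chromosome 18 (61100598 to 61132149). Exons of Csf1r overlap exons of Hmgxb3 on the opposite strand, and no source used here says whether counting used the strand, so the level of Csf1r is uncertain. Exons of the other 9 overlap those of no other gene in the files.

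Levels are FPKM, which the authors scaled to the length of the gene and the size of the library. They are given per length, but the gene lengths used are not stated, so comparisons between genes depend on those lengths. Depth is not stated and was estimated from the most frequent step in low FPKM values, which put the libraries at a rough 9710000 to 20700000 fragments. On that estimate the member values rest on 18 fragments (Tyrobp in control 4) to 689 fragments (C1qc in mutant 1). Rnu11 itself stood at 473 to 1421 FPKM in mutants and at 1913 to 2817 FPKM in controls. The libraries also fell into 2 sets that crossed genotype, seen in the small nuclear RNA Rnu12. This split was known from earlier results of these data, and no label explains it. Mutant 4, mutant 5 and control 5 had 487 to 688 FPKM of Rnu12 (the second set), and the other 7 libraries had 5.91 to 33.8 FPKM (the first set). The summed members, the member counts and some single genes and lists are therefore also given within the sets, but not every result is. The second set, with its single control, has no spread of its own in that group. Within the mutants the sets also differed in Rnu11, at 1344 and 1421 FPKM in mutants 4 and 5, against 473 to 712 FPKM in mutants 1 to 3.

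All 10 genes averaged higher in mutants than in controls, by 1.54 times (Csf1r) to 2.42 times (Fcrls) as a ratio of mean FPKM, but the spread between libraries was wide. The groups overlapped for every one, so that 0 of 10 had all 5 mutants above all 5 controls, against 1.52% of all genes tested. With genotype as the single term 0 of 10 passed (limma on log2(FPKM + 1), Benjamini-Hochberg adjustment over all genes tested, threshold 0.05; adjusted p = 0.414 to 0.649). Among all 13522 genes tested 0.155% passed, 0.0887% being higher in mutants. An unadjusted p under 0.05 was reached by 4 members, all higher in mutants, namely Fcer1g, Mrc1, Aif1 and C1qa, against 7.69% of all genes tested. The median log2 difference of the 10 was 0.71, against 0.11 over all genes tested, and 10 of 10 lay above 0, as did 75.7% of all genes. In bulk tissue, more cells of a type and more RNA per cell cannot be told apart.

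**Figure D1:**
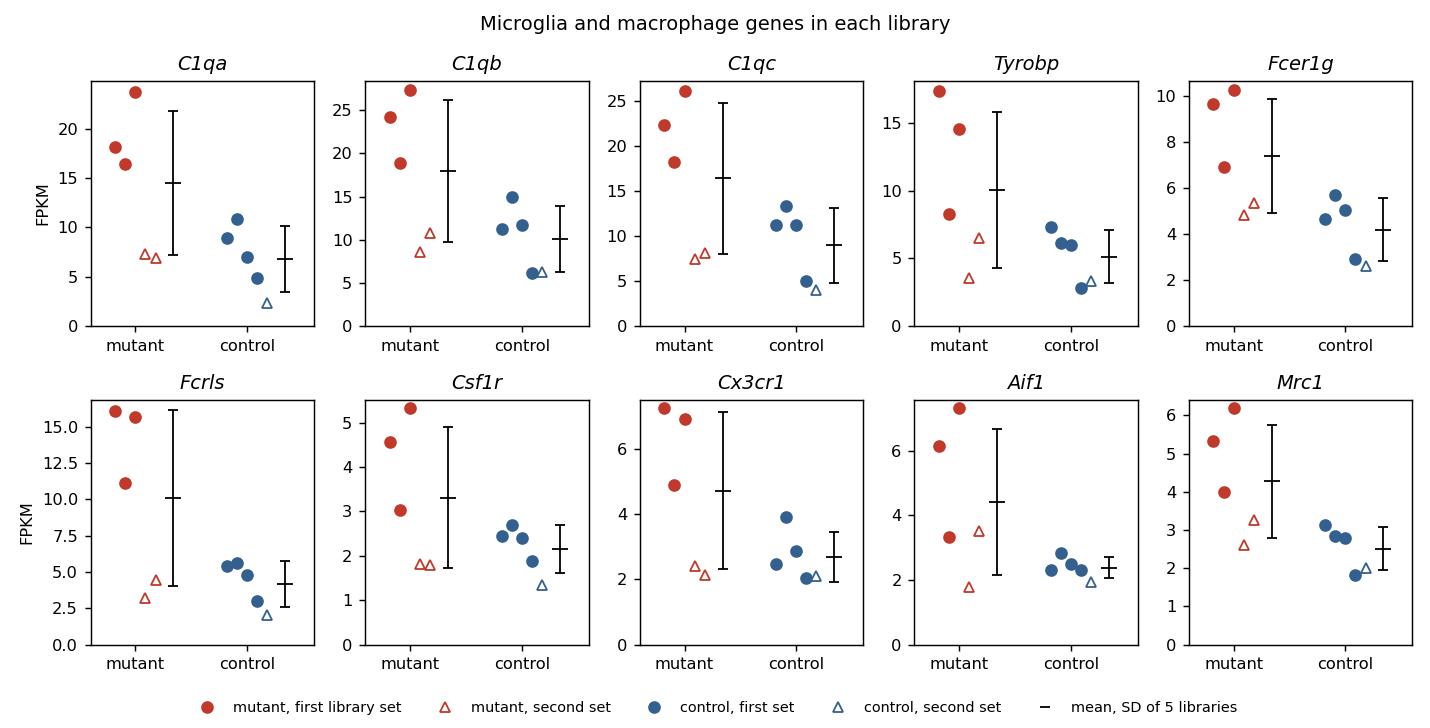
FPKM (y axis, linear from 0) of each of the 10 genes in the 5 mutant and 5 control libraries; filled circles are the first library set, open triangles the second, and bars are the mean with SD of 5 libraries. Mutants 1 to 3 lie above all 7 other libraries in 9 of the 10 panels, mutant 4 lies below the highest control in all 10, and mutant 5 does in all but Aif1 and Mrc1.

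The summed FPKM of the 10 genes was 131, 95.0, 143, 43.5 and 52.7 in mutants 1 to 5, against 59.1, 68.9, 56.4, 32.7 and 28.0 in controls 1 to 5. Mutants 1 to 3 thus stood above every control, while mutants 4 and 5 stood below controls 1 to 3. The sum averaged 93.1 ± 44.9 FPKM in mutants and 49.0 ± 17.8 FPKM in controls (SD, n = 5 each), 1.90 times as much. Within the first set the ratio was 2.27, and within the second set 1.72. Mutants 1 to 3 lay above all 7 other libraries for 9 of the 10 genes, the exception being Aif1.

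Within the sets the genotypes separated for most members. In the first set all 3 mutants lay above all 4 controls for 10 of 10 members, against 16.7% of all genes tested. In the second set both mutants lay above the single control for 9 of 10 members, all but Aif1, against 22.7% of all genes. When the model also held a term for the library set, 3 of 10 members rose (limma, adjusted p under 0.05). That model called 0.547% of all genes, 0.325% of all genes as higher in mutants. The 3 were C1qa (log2 difference 1.25, SE 0.18, adjusted p = 0.0089), Fcrls (1.21, SE 0.19, adjusted p = 0.0149) and Fcer1g (0.82, SE 0.16, adjusted p = 0.0391). In a fit of the first set alone, Fcrls was the member that rose (log2 difference 1.43, SE 0.20, adjusted p = 0.016), where 0.747% of all genes were called, 0.606% as higher in mutants. The members correlate with each other, so these counts are not of 10 independent genes.

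**Figure D2:**
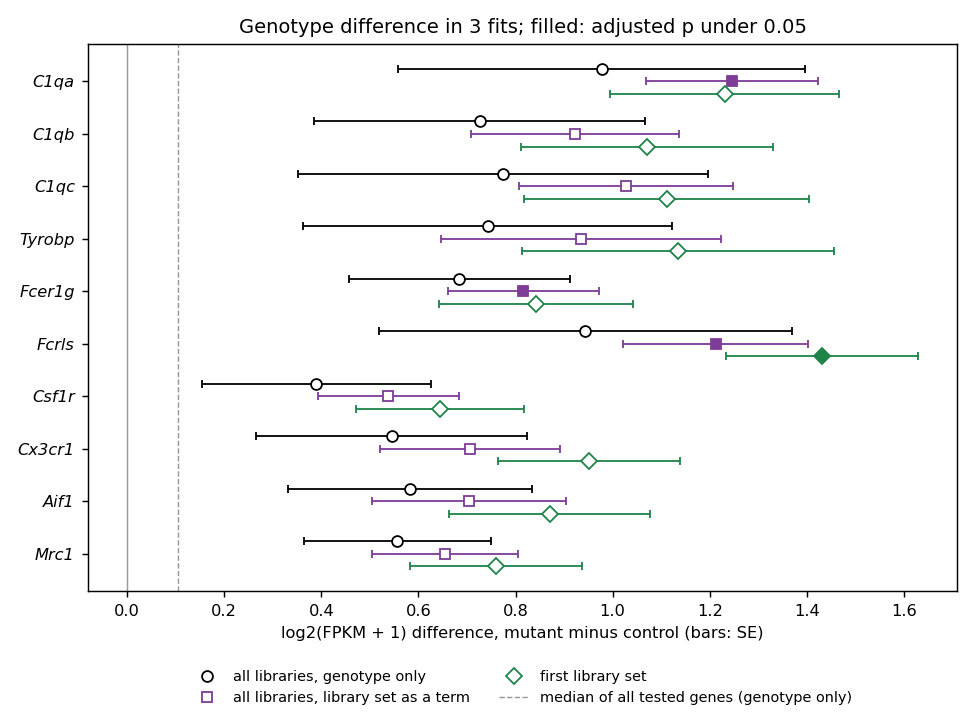
Log2(FPKM + 1) difference, mutant minus control, with its SE (x axis), for each of the 10 genes in 3 limma fits; filled symbols have an adjusted p under 0.05 and the dashed line is the median of all tested genes, 0.11. Every estimate lies above the dashed line, and C1qa, Fcer1g and Fcrls have filled symbols in the fit with the library set, Fcrls also in the first set alone.

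The C1q genes had the highest mean FPKM of the members. C1qa stood at 18.2, 16.4, 23.8, 7.33 and 6.89 FPKM in mutants 1 to 5, against 8.92, 10.9, 7.04, 4.82 and 2.32 FPKM in controls 1 to 5. Mutants 1 to 3 lay above every control, and mutants 4 and 5 within the control range. C1qa averaged 14.5 ± 7.28 FPKM in mutants and 6.80 ± 3.36 FPKM in controls (SD, n = 5 each), a log2 difference of 0.98 (SE 0.42, adjusted p = 0.563 by limma; exact two-sided permutation test, unadjusted p = 0.0794).

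C1qb had 24.3, 18.9, 27.3, 8.52 and 10.7 FPKM in mutants 1 to 5, against 11.2, 15.0, 11.7, 6.10 and 6.27 FPKM in controls 1 to 5. C1qc had 22.3, 18.2, 26.1, 7.43 and 8.08 FPKM in mutants 1 to 5, against 11.2, 13.3, 11.3, 4.97 and 3.98 FPKM in controls 1 to 5. As for C1qa, mutants 1 to 3 lay above every control, and controls 4 and 5 were the lowest libraries. Their log2 differences were 0.73 (SE 0.34) for C1qb and 0.77 (SE 0.42) for C1qc, and neither passed.

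The C1q protein holds its chains in equal number. Among the transcripts, C1qc ran at 0.64 to 1.00 times C1qb in FPKM across the 10 libraries. Such ratios depend on the gene lengths used, which are not known. C1qa ran at 0.64 to 0.87 times C1qb in mutants and at 0.37 to 0.79 times in controls, the lowest ratio being that of control 5. Together the C1q genes held 48.9 to 56.3% of the summed member FPKM in mutants and 45.0 to 56.9% in controls.

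Fcrls, a scavenger receptor gene of the Fc receptor-like family used as a microglia marker in mice, had 16.1, 11.1, 15.7, 3.23 and 4.43 FPKM in mutants 1 to 5. The controls had 5.44, 5.61, 4.76, 3.02 and 2.06 FPKM. The gap between mutants 1 to 3 and every control was wide, and mutants 4 and 5 lay among the controls. Fcrls averaged 10.1 ± 6.07 FPKM in mutants and 4.18 ± 1.57 FPKM in controls (SD, n = 5 each; log2 difference 0.94, SE 0.42, limma adjusted p = 0.568; exact two-sided permutation test, unadjusted p = 0.103). Within the first set mutants were 3.04 times the controls, and within the second set 1.86 times.

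Fcer1g, the common gamma chain of Fc receptors, had 9.65, 6.92, 10.3, 4.83 and 5.34 FPKM in mutants 1 to 5, against 4.68, 5.70, 5.06, 2.93 and 2.62 FPKM in controls 1 to 5. Its mutant to control ratio was nearly the same in both sets, 1.95 in the first and 1.94 in the second. Over all libraries the log2 difference was 0.68 (SE 0.23, limma adjusted p = 0.414; exact two-sided permutation test, unadjusted p = 0.0476). Tyrobp, also known as DAP12, the adaptor of Trem2, had 17.4, 8.26, 14.5, 3.52 and 6.49 FPKM in mutants 1 to 5, against 7.34, 6.12, 5.97, 2.79 and 3.34 FPKM in controls 1 to 5. Its log2 difference was 0.74 (SE 0.38, adjusted p = 0.597), with mutants 1 to 3 above every control and mutants 4 and 5 within the control range.

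Csf1r, the receptor for the growth factors encoded by Csf1 and Il34, showed the smallest difference of the 10. It had 4.57, 3.04, 5.32, 1.83 and 1.80 FPKM in mutants 1 to 5, against 2.44, 2.69, 2.40, 1.88 and 1.34 FPKM in controls 1 to 5. Mutants 1 to 3 lay above every control and mutants 4 and 5 among them, for a log2 difference of 0.39 (SE 0.24, adjusted p = 0.649). Cx3cr1, the receptor of fractalkine, had 7.26, 4.90, 6.92, 2.42 and 2.12 FPKM in mutants 1 to 5, against 2.46, 3.91, 2.87, 2.05 and 2.11 FPKM in controls 1 to 5. In the second set Cx3cr1 differed little between genotypes, with a ratio of 1.08, against 2.25 in the first set. Whether this difference between the sets exceeds their spread was not tested.

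Aif1 had 6.16, 3.33, 7.30, 1.79 and 3.50 FPKM in mutants 1 to 5, against 2.32, 2.82, 2.48, 2.32 and 1.92 FPKM in controls 1 to 5. It was the member whose lowest library was a mutant, mutant 4, and 4 mutants lay above every control. Mrc1, the mannose receptor and the border macrophage marker of the list, had 5.33, 4.00, 6.20, 2.60 and 3.26 FPKM in mutants 1 to 5, against 3.12, 2.84, 2.80, 1.81 and 2.00 FPKM in controls 1 to 5. Here too 4 mutants lay above every control (log2 difference 0.56, SE 0.19, limma adjusted p = 0.439; exact two-sided permutation test, unadjusted p = 0.0476). The ratio of Mrc1 to Cx3cr1 was 0.73 to 1.53 in mutants and 0.73 to 1.27 in controls, ranges that overlap.

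By mean FPKM over the 10 libraries the order was C1qb (14.0), C1qc (12.7), C1qa (10.7), Tyrobp (7.57), Fcrls (7.14), Fcer1g (5.80), Cx3cr1 (3.70), Mrc1 and Aif1 (both 3.39) and Csf1r (2.73). C1qb lay above C1qc, C1qc above C1qa and Fcer1g above Cx3cr1 in 10 of 10 libraries. The other neighbours changed places between libraries: C1qa lay above Tyrobp in 9 of 10, Tyrobp above Fcrls in 7, Fcrls above Fcer1g in 5, Cx3cr1 above Mrc1 in 7, Mrc1 above Aif1 in 6 and Aif1 above Csf1r in 8. The span from the lowest to the highest library was narrowest for Mrc1, 3.43 times, and widest for C1qa, 10.2 times. Pearson's r of log2(FPKM + 1) between members over the 10 libraries ran from 0.81 to 0.99 across 45 pairs, with a median of 0.93. These points share library, depth and the split into sets.

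Genes outside the list with the most similar pattern were ranked by Pearson's r with the mean log2 level of the 10 members, over the 10 libraries. The ranking held 11325 tested genes, with predicted genes (Gm and Rik names) and pseudogenes (-ps names) left out. The first 8 were Emr1 (0.98), Fcgr3 (0.98), Laptm5 (0.98), Cd53 (0.98), Arhgdib, Lyve1, adapt33_4 and Ctsb (each 0.97). Emr1, now named Adgre1, encodes the macrophage antigen F4/80, Fcgr3 an Fc receptor that signals through Fcer1g, Lyve1 a hyaluronan receptor of border macrophages and lymphatic vessels, and Ctsb the protease cathepsin B. Emr1 stood at 2.42, 1.68, 2.67, 0.916 and 1.09 FPKM in mutants 1 to 5, against 1.19, 1.31, 0.828, 0.649 and 0.387 FPKM in controls 1 to 5. None of the 8 passed with genotype as the single term (limma, lowest adjusted p = 0.447). Arhgdib and adapt33_4 are in none of the gene lists used here. Of the microglia markers named below, r was 0.91 for Gpr34, 0.85 for Tmem119, 0.69 for P2ry12, 0.62 for Sparc and 0.23 for Cst3. Of the meningeal and pericyte genes named below, it was 0.84 for Rgs5, 0.74 for Col1a1, 0.48 for Lum and -0.45 for Zic1. The ranges of these lists thus overlapped.

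**Figure D3:**
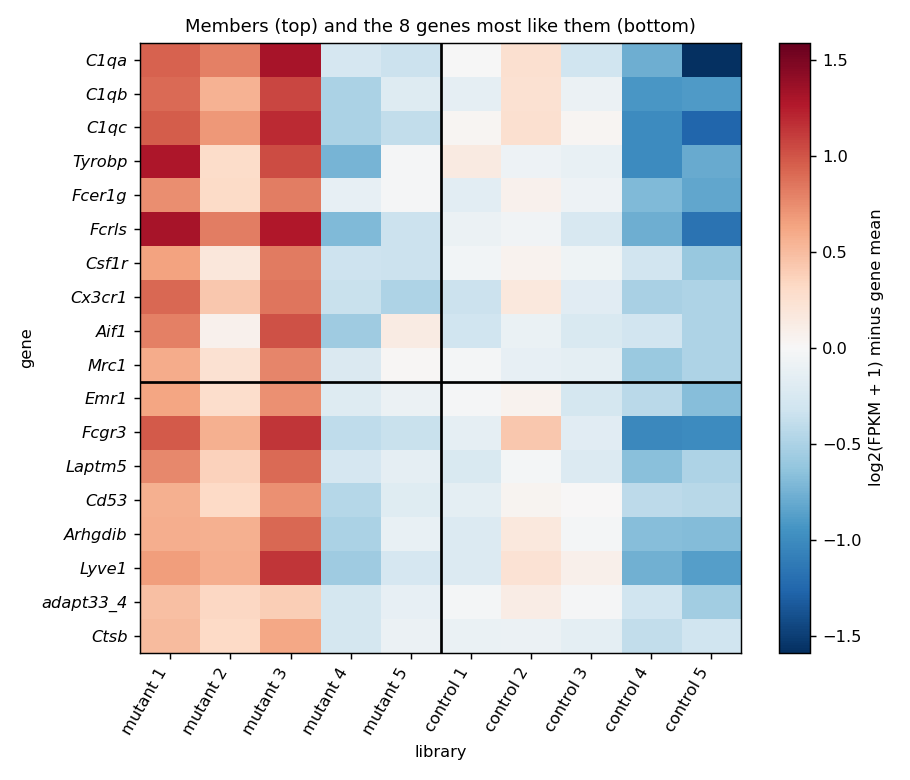
Log2(FPKM + 1) minus the mean of each gene over the libraries (colour), for the 10 members above the line and the 8 genes most like them below it, in 5 mutant and 5 control libraries. Mutants 1 and 3 are the darkest red columns, and controls 4 and 5 the bluest.

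Other listed markers of microglia spanned a wide range of levels. Of 12 listed, 9 passed the filter of 1 FPKM in 5 libraries. The summed FPKM of all 12 was 1.10 times as high in mutants as in controls, 1.15 times in the first set, and 1.03 times in the second set, where the genotypes overlapped. Most of that sum came from Cst3, at 107 to 121 FPKM in mutants and 104 to 112 FPKM in controls, and Sparc, at 70.2 to 95.3 FPKM in mutants and 68.9 to 96.7 FPKM in controls, which neural and vascular cells also express. P2ry12, a purine receptor of mature microglia, stood at 0.969 to 2.96 FPKM in mutants and 1.09 to 1.68 FPKM in controls, and Tmem119 at 1.80 to 3.90 FPKM in mutants and 1.18 to 2.44 FPKM in controls. Siglech, at 0.0462 to 0.429 FPKM in mutants and 0.0965 to 0.357 FPKM in controls, did not pass the filter. By limma 0 of the 9 were called (1 with an unadjusted p under 0.05; median log2 difference 0.32), with Gpr34, a microglial receptor, at 0.48. Of 10 border macrophage markers 6 were tested and 0 called (0 with an unadjusted p under 0.05; median 0.35), with Lyve1 at 0.62 and Dab2 at 0.31. Above 0 lay 9 of the 9 microglia markers and 5 of the 6 border macrophage markers, as did 75.7% of all genes. Above the median of all genes lay 7 of the 9 and 4 of the 6. Pf4 stood at 5.40 to 18.5 FPKM in mutants and 3.53 to 12.1 FPKM in controls, whereas Cd163 stood at 0 to 0.0409 FPKM in mutants and 0 to 0.037 FPKM in controls.

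Other macrophage genes did not pass with genotype as the single term, where 0.155% of all genes tested passed. Of 18 pan-macrophage and leukocyte genes 10 were tested, with a median log2 difference of 0.44. Of these 9 lay above 0, as did 75.7% of all genes. By limma 0 of the 10 were called and 5 had an unadjusted p under 0.05, which 7.69% of all genes reached while higher in mutants. In the first set all 3 mutants lay above all 4 controls for 6 of the 10, against 16.7% of all genes tested. The summed FPKM of all 18 was 1.26 times as high in mutants as in controls, and the groups overlapped in the first set as well. Laptm5, a lysosomal membrane protein of leukocytes, stood at 2.28 ± 1.15 FPKM in mutants and 1.00 ± 0.337 FPKM in controls (SD, n = 5 each), and Ly86 at 2.42 ± 1.30 FPKM in mutants and 1.12 ± 0.462 FPKM in controls. Spi1, which encodes PU.1, did not pass the filter, at 1.35, 0.978, 2.85, 0.196 and 0.463 FPKM in mutants 1 to 5, against 0.647, 0.571, 0.508, 0.258 and 0.136 FPKM in controls 1 to 5.

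Ligands of the member receptors come mainly from other cells. Csf1, a ligand of Csf1r, had 3.82, 4.31, 2.85, 2.36 and 2.72 FPKM in mutants 1 to 5, against 1.55, 2.69, 1.58, 2.84 and 1.70 FPKM in controls 1 to 5. The groups overlapped (log2 difference 0.46, SE 0.17, adjusted p = 0.477). Cx3cl1, the fractalkine that Cx3cr1 binds, averaged 1.01 ± 0.358 FPKM in mutants and 0.685 ± 0.151 FPKM in controls (SD, n = 5 each). Il34, the other ligand of Csf1r, averaged 0.509 ± 0.437 FPKM in mutants and 0.318 ± 0.257 FPKM in controls (SD, n = 5 each). Neither passed the filter.

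Genes that work with the members did not pass with genotype as the single term. Of 13 complement genes 4 were tested and 0 called by limma (1 with an unadjusted p under 0.05; median 0.30), with C3ar1, the receptor of the complement fragment C3a, at 2.09 ± 0.866 FPKM in mutants and 1.04 ± 0.291 FPKM in controls (SD, n = 5 each), and the inhibitor Serping1 at a log2 difference of 0.27. Of 14 genes of adaptor signalling 5 were tested and 0 called (1 with an unadjusted p under 0.05; median 0.25). Ptpn6, a phosphatase that restrains such signals, stood at 4.35, 2.89, 4.48, 1.16 and 4.04 FPKM in mutants 1 to 5, against 1.17, 2.28, 1.31, 1.00 and 0.727 FPKM in controls 1 to 5 (log2 difference 0.89, SE 0.26, limma adjusted p = 0.346). It was called only in the fit without mutant 4, its lowest mutant, which lay within the control range (1.13, limma adjusted p = 0.0426). No other fit that left out 1 library called a gene of these lists. Fcgr3 had a log2 difference of 0.77. Of 15 engulfment genes 10 were tested and 0 called (0 with an unadjusted p under 0.05), with a median of 0.10, Pros1 at 0.28 and Itgav at 0.27.

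Of 15 genes of activated macrophages 6 were tested and 0 called with genotype as the single term (3 with an unadjusted p under 0.05; median 0.48). Ctsd, the lysosomal protease cathepsin D, rose in the fit with the library set (log2 difference 0.63, adjusted p = 0.0434) and in the first set alone (0.79, adjusted p = 0.0294), and in the first set Ctsb rose as well (0.67, adjusted p = 0.0452). Both are also made by neural cells. Ctsd had 119, 89.0, 126, 69.3 and 59.6 FPKM in mutants 1 to 5, against 64.0, 63.4, 63.4, 62.6 and 54.5 FPKM in controls 1 to 5. Spp1, which encodes osteopontin, had 1.21, 1.28, 2.70, 0.664 and 3.61 FPKM in mutants 1 to 5, against 0.513, 0.470, 1.02, 0.302 and 0.306 FPKM in controls 1 to 5 (log2 difference 0.84, adjusted p = 0.357).

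Markers of other cell types at the brain's border varied between the libraries too. The 11 meningeal and pericyte genes other than Zic1, which neural cells also express, summed to 137, 140, 192, 79.7 and 103 FPKM in mutants 1 to 5, against 134, 156, 103, 66.5 and 88.7 FPKM in controls 1 to 5. The 4 libraries lowest in the summed members, mutants 4 and 5 and controls 4 and 5, were also the 4 lowest in this sum, and mutant 3 was highest in both. Col1a1, a collagen of fibroblasts, stood at 1.46 to 10.6 FPKM in mutants and 1.57 to 10.8 FPKM in controls. Of the full list of 12 genes 11 were tested, Zic1 among them but not Foxd1. Between the genotypes 0 of these 11 were called (0 with an unadjusted p under 0.05), with a median of 0.17, Rgs5 at 0.32 and Lum at 0.31. In the first set 0 of the 11 had all 3 mutants above all 4 controls, against 16.7% of all genes tested. The same count was 4 of 9 for the microglia markers and 2 of 6 for the border macrophage markers. It was 0 of 12 for the endothelial and 0 of 9 for the erythroid genes.

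A further limma fit, chosen after the data were seen, held as a second term the mean log2(FPKM + 1) of the 11 tested meningeal and pericyte genes. These include Zic1 and leave out Foxd1, so the term is not the level without Zic1 given above. In this fit the log2 differences of the members shrank to between 0.19 (Csf1r) and 0.63 (C1qa). Of the members 0 passed, against 0.074% of all genes (lowest adjusted p = 0.237, Fcer1g). An unadjusted p under 0.05 with a higher level in mutants was found for 7 members, against 12.1% of all genes. All 10 lay above 0, as did 75.7% of all genes, and the median of all genes was 0.12 in that fit. The fit only adjusts for a marker level from the same 10 libraries, so it does not measure the part of meningeal tissue in the member levels. That part was not tested.

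Blood and vessel markers overlapped between the groups. Erythroid genes summed to 5402 to 10169 FPKM in mutants and 3911 to 9711 FPKM in controls, and endothelial genes to 50.7 to 90.3 FPKM in mutants and 43.3 to 71.5 FPKM in controls, with 0 of 9 erythroid and 0 of 12 endothelial genes called (0 with an unadjusted p under 0.05 in either list). The median log2 difference was 0.29 for the erythroid and 0.18 for the endothelial genes, against 0.11 over all genes tested. Of the erythroid genes 7 of 9 lay above 0, and of the endothelial 11 of 12, as did 75.7% of all genes. In the first set alone the medians were 0.44 and 0.26, against 0.16 over all genes and 0.41 for the microglia markers. Hba-a1 and Alas2 lay at log2 differences of 0.50 and 0.41, and Emcn and Erg at 0.43 and 0.31. Genes of granulocytes, mast cells and lymphocytes all failed the filter (0 of 11 tested), summed to at most 3.28 FPKM in mutants and 8.33 FPKM in controls, and Elane and Cd3e were listed at 0 in all 10 libraries.

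**Figure D4:**
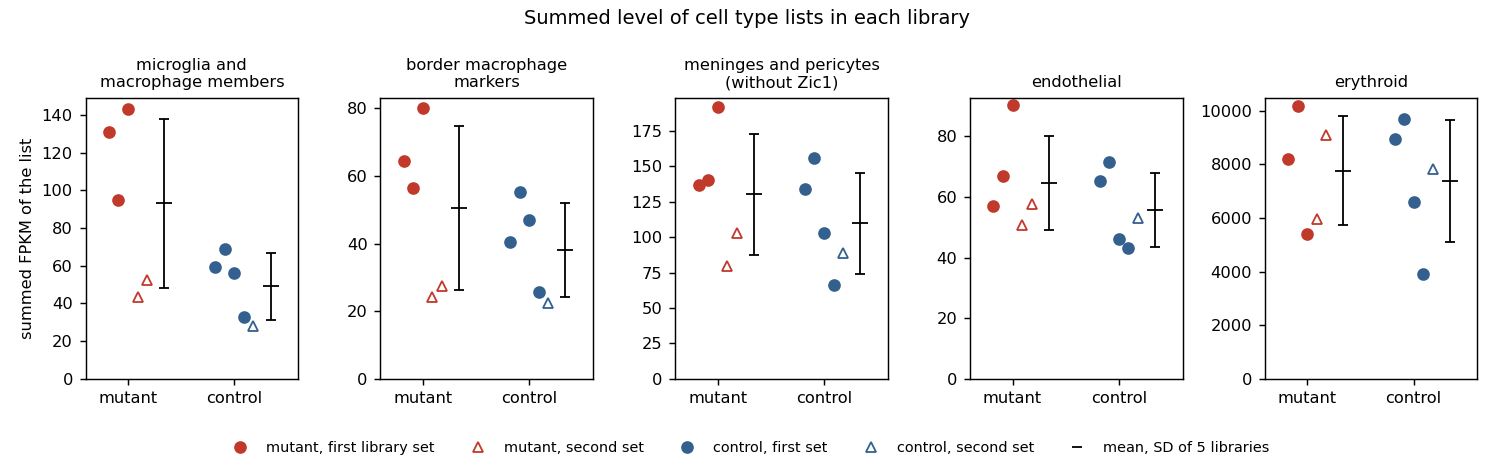
Summed FPKM (y axis, linear from 0) of 5 cell type lists in the 5 mutant and 5 control libraries; filled circles are the first library set, open triangles the second, and bars are the mean with SD of 5 libraries. In the first set the mutants lie above the controls for the member and border macrophage sums, and the groups overlap for the meningeal, endothelial and erythroid sums.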

How the data were processed

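Stranded libraries of total RNA depleted of ribosomal RNA (Ribo-Zero) were sequenced, per the labels' protocols. HISAT2 and GRCm38 (mm10) are named in the submitters' processing notes, but no source used here names the program behind the values. Each deposited list pairs 38803 gene symbols with the authors' FPKM in 1 library. The FPKM of a library summed to between 1996700 and 3051430.

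The log2(FPKM + 1) values were compared by limma (version 3.58.1, R 4.3.3), with an intensity trend, robust moderation and a single term for genotype. A gene entered the fit if 5 or more libraries reached 1 FPKM, which kept 13522 genes and all 10 members. Benjamini-Hochberg adjusted p-values were read against 0.05. This scale understates the fold change of low genes. Exact two-sided permutation tests used all 252 splits of 5 against 5 (smallest possible p = 0.00794). Python 3.11.15, pandas 2.3.3 and matplotlib 3.10.9 were used for the other steps. The fit was tested on simulated data.

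Depth is unknown. It was roughly estimated from the most frequent FPKM step in single-transcript genes with over 1500 exonic bases, shared by 15 to 25 of 594 to 961 genes, so no counting intervals were computed. Library sets were split at 100 FPKM of Rnu12. Coordinates are from GENCODE M21 (GRCm38), which may differ from the authors' annotation. The members, the lists and the split into library sets were chosen with earlier results of these data known. Named genes were the 10 members, 3 ligands, up to 3 called genes in each other list (with no call, the 2 lowest p-values), and the 8 genes most like the members. For the microglia markers 1 gene that this rule names is not reported here. P2ry12, Tmem119, Siglech, Pf4, Cd163, Cst3, Sparc, Spi1, Col1a1, Elane and Cd3e were named after their values were seen. Adgre1 and C1s1 were found in the files as Emr1 and C1s by RefSeq synonyms, and Ahsp was not analysed here. Alternatives were other pseudocounts, filters and scalings, a library set term, a replicate block, the first set alone, moderation without robustness and leaving out each library.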

Additional observations from a re-analysis of the deposited data

Results flagged for a closer look

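In 74 groups of 5 libraries (37 named genes, mutants and controls), 3 held a library far from the other 4 by Dixon's criterion, where chance gives about 1 in 20. None was a group of a member gene. Emcn, an endothelial sialomucin, stood at 6.92 FPKM in mutant 3, against 4.33 to 4.83 FPKM in the other mutants. Itgav, an integrin subunit of engulfment, stood at 6.39 FPKM in control 4, against 4.31 to 4.91 FPKM in the other controls. Ctsd stood at 54.5 FPKM in control 5, against 62.6 to 64.0 FPKM in the other controls.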

How the results depend on the processing

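The 10 member differences kept their direction in all alternatives run. With genotype as the single term 0 members and 0 context genes were called. Adding the library set gave 3 members and 1 context gene (Ctsd), the first set alone gave 1 member (Fcrls) and 2 context genes (Ctsb and Ctsd), and leaving out mutant replicate 4 gave no member and 1 context gene (Ptpn6). Leaving out each library in turn gave 0 members called in all 10 fits and 0 to 1 context genes. In those 10 fits member log2 differences ran from 0.23 (Csf1r) to 1.24 (Fcrls), with adjusted p from 0.199 to 0.899. The log2 ratio of the summed member level, 0.93, ran from 0.72 to 1.11. Rescaling to a common median ratio and quantile normalization, which brought the median of all genes from 0.11 to 0.00 and -0.01, both gave a log2 ratio of 0.75. No label says that a replicate number marks a shared source, deviations of same-numbered libraries correlated over 0.1 in 3 of 5 pairs (-0.11 to 0.52), and 5 of 10 libraries correlated best with their own number, so the numbers were not taken as pairs. With the replicate block 0 members were called (lowest adjusted p = 0.0892), and 14 of all genes, against 21 without it. Depth was thinnest for Tyrobp in control 4, at an estimated 18 fragments.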
